A study of Mus musculus with 40 samples.

Results

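Expression of 35 genes that carry newly made secretory proteins into the endoplasmic reticulum (ER) and attach sugar chains to them was examined in the pancreas of 40 male C57BL/6J mice. The genes were chosen by symbol, as known subunits of the machinery and enzymes of its sugar precursor. Of the 35, 33 had at least 1 probe on the array (47 probes) and 28 had a signal high enough to be tested, among 8858 tested genes in all. Sec61g and Tusc3 were not analysed here.

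RNA from samples of pancreas, taken at 9 weeks of age after a short fast, was hybridized to Illumina MouseRef-8 v2.0 arrays, 1 for each mouse. Dams ate either a high fat, low carbohydrate diet (HF) or a low fat, high carbohydrate diet (LF) from before mating until weaning, with coconut oil as the main fat of both, and their sons were then fed HF or LF. Groups are named with the dam's diet first. HF_HF mice (HF dams, HF after weaning), HF_LF mice (HF dams, LF after weaning), LF_HF mice (LF dams, HF after weaning) and LF_LF mice (LF dams, LF after weaning) numbered 10 each. No group ate ordinary chow, so every contrast is between these 2 purified diets. Each dam diet had 6 birth cages (12 in all), and 5 cages held sons on both diets. Sons of 1 birth cage are not independent, and a cage could hold pups of more than 1 dam.

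A protein bound for secretion is recognized while it is still being made. Its signal sequence is caught by the signal recognition particle (SRP), the ribosome docks at the SRP receptor on the ER membrane, and the chain passes through the Sec61 channel with help from accessory proteins. Signal peptidase then removes the signal sequence, and oligosaccharyltransferase (OST) moves a sugar chain prebuilt on the lipid dolichol onto asparagines of the chain. Pancreatic acinar cells, which make digestive enzymes for export, are known for an extensive ER. Digestive enzyme genes were bright on these arrays: 21 of 26 named were tested, with mean signals between 2622 and 33168 units and a median of 27907 units.

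Every deposited array had a median signal of 62.9 to 63 units, and the correlation of any pair of arrays lay between 0.93 and 0.99 on the log2 scale. Background was not subtracted, so folds of dim probes are compressed. Arrays LF_LF 1, LF_HF 1 and HF_HF 5 stood apart from the others in their distance from the median array. On LF_LF 1 the mean of the 9 tested adipocyte markers was 2.01 above its average over all arrays (log2), that of 12 myeloid markers 1.46 above, and that of 4 T and NK cell markers 1.45 above. On LF_HF 1 the mean of 12 hepatocyte markers was 2.95 above average, and on HF_HF 5 the myeloid mean was 1.61 above. Medians and calls of the members that rest on these arrays are given with and without them. Differences of single genes include these arrays unless stated otherwise.

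Another 5 genes with a probe did not pass the filter, which asked for a signal above the array's median on 20 or more of the 40 arrays. Sec62, a subunit that works beside the channel, ranged from 48.5 to 71.5 units. Ssr1, a translocon-associated protein, ranged from 46.4 to 61.6 units, and the OST subunits Rpn1 and Magt1 from 48 to 62.4 and from 48.5 to 61.7 units. The 3 probes of Dpm1, a subunit of the synthase that makes dolichol-phosphate mannose, lay between 52.2 and 66.8 units. Ssr1, Rpn1 and Magt1 exceeded the array's median on 0 of the 40 arrays, while Sec62 and Dpm1 were close to it. No statement on the diets was drawn from these probes.

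The first question was what the HF diet after weaning did in sons of HF dams. Ssr3, Spcs3, Ostc and Alg5 fell in HF_HF mice compared with HF_LF mice, and no member of the machinery was called as higher (limma, adjusted p under 0.05 over 12246 probes). These 4 of 28 members stand beside 1.29% of all tested genes that fell, 1.17% that rose and 2.46% called in either direction. Over the 28 members, 9 were higher and 19 lower, with a median log2 difference of -0.06, whereas 50% of all tested genes were higher. Signal ranges of HF_HF and HF_LF mice overlapped for all 28. In unsorted tissue, fewer cells of a type and less RNA per cell cannot be told apart.

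Ssr3 encodes the gamma subunit of the translocon-associated protein (TRAP) complex, which helps certain signal sequences engage the channel. Its signal had a lowest, median and highest value of 1107, 1312 and 1963 units in HF_HF mice, against 1477, 1703 and 1950 units in HF_LF mice. All but 1 of the 10 HF_HF arrays lay below the HF_LF median, and array HF_HF 7 was the highest of all 20. The log2 difference was -0.33 (SE 0.08, 95% interval -0.50 to -0.17, limma adjusted p = 0.0339), or 1.26-fold lower.

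Spcs3 encodes a noncatalytic subunit of signal peptidase. It measured 489, 600 and 755 units (lowest, median, highest) in HF_HF mice, against 583, 753 and 813 units in HF_LF mice. Again 9 of 10 HF_HF arrays were below the HF_LF median, while the ranges overlapped over most of their width. Spcs3 fell by 0.33 on the log2 scale (SE 0.08, limma adjusted p = 0.0348).

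Ostc encodes a small OST subunit of the STT3A form of the enzyme, the form that works beside the channel. Its lowest, median and highest signals were 650, 732 and 913 units in HF_HF mice, and 776, 895 and 1087 units in HF_LF mice. Only 1 HF_HF array exceeded the HF_LF median. Ostc fell by 0.30 (log2, SE 0.07, limma adjusted p = 0.0334).

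Alg5 encodes the glucosyltransferase that loads glucose onto dolichol phosphate, a donor for the growing sugar chain. It measured 515, 573 and 725 units (lowest, median, highest) in HF_HF mice, against 615, 698 and 778 units in HF_LF mice. The log2 difference was -0.24 (SE 0.07, limma adjusted p = 0.0491), with 9 of 10 HF_HF arrays below the HF_LF median. Both other probes of Alg5 differed in the same direction without passing the test, by -0.23 (limma adjusted p = 0.106) and -0.17 (limma adjusted p = 0.131).

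**Figure D1:**
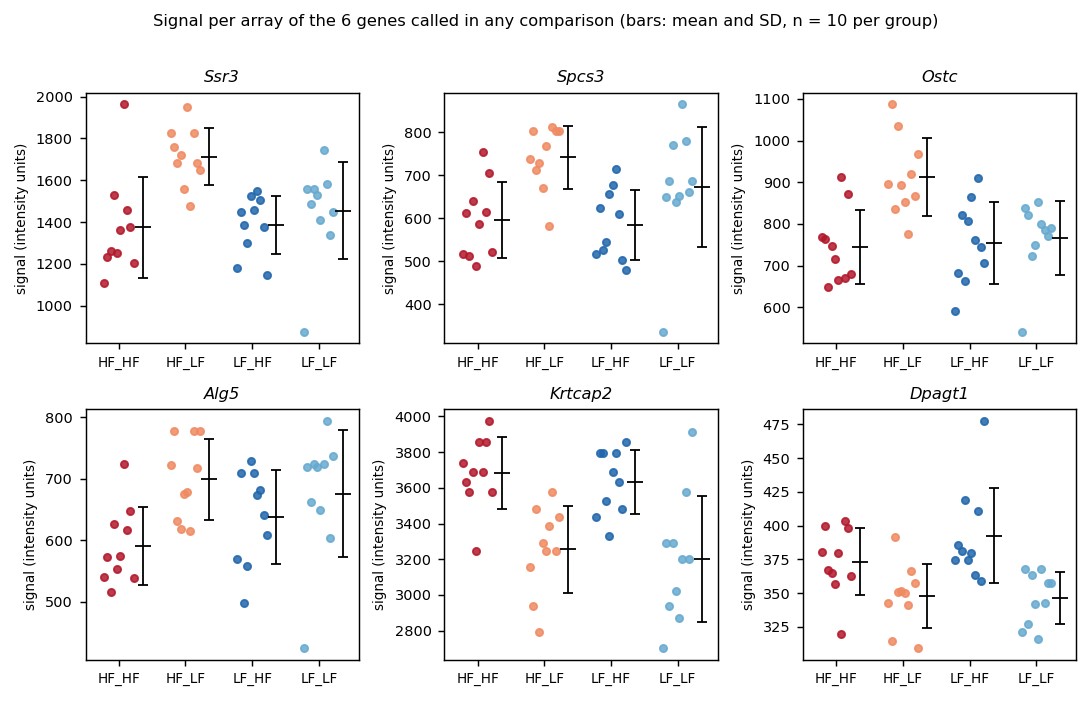
Signal of each array (y axis, intensity units, axes not starting at 0) for the 6 genes called in any comparison, by group (x axis). Points are arrays and bars the mean and SD of 10 arrays. For Ssr3, Spcs3, Ostc and Alg5, 9 of 10 HF_HF arrays lie below the HF_LF median, and array LF_LF 1 is the lowest point of its group for each of them.

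These 4 calls were close to the threshold. Krtcap2 (0.18, limma adjusted p = 0.0598) was called as higher beside them under 4 alternatives. Leaving out array HF_LF 4, or cage 10, 12, 21 or 23, left 0 members called, leaving out cage 1 left only Alg5, and leaving out array HF_HF 5 left Ssr3 and Ostc with Krtcap2 called as higher. With birth cage as a fixed block, which compares sons of the same birth cage, the log2 differences were -0.39 for Ssr3, -0.34 for Spcs3, -0.27 for Ostc and -0.30 for Alg5, and 0 of these passed (lowest limma adjusted p = 0.111), while the calls over all probes went down to 51, compared with 274 without the block.

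Markers of other cells moved with the same contrast. All 12 tested myeloid markers were higher in HF_HF mice than in HF_LF mice (median log2 difference 0.31), as were 8 of 9 adipocyte markers (median 0.24) and 10 of 11 fibroblast and matrix markers (median 0.19). None of these passed the test for a single gene (lowest limma adjusted p = 0.144). The per-array mean of the myeloid markers ran from -0.36 to 1.61 in HF_HF mice, against -0.43 to 0.22 in HF_LF mice, and that of the adipocyte markers from -0.50 to 0.67, against -0.44 to 0.21. The myeloid mean of 1.61 was on array HF_HF 5, which enlarged the myeloid difference. Marker differences without this array are not given here. Digestive enzymes were higher for 10 and lower for 11 of 21 genes, with a median of -0.01, and 9 of 12 hepatocyte markers were lower (median -0.20). Many digestive enzyme probes lay near the top of the scale, so their flat values do not show that acinar content was unchanged. All 4 tested acinar transcription factor genes were higher (median 0.20), and 0 of them passed (lowest limma adjusted p = 0.062). The part of these cells in the falls of Ssr3, Spcs3, Ostc and Alg5 was not tested. Without HF_HF 5, the array with the highest myeloid mean, the differences were -0.32, -0.30, -0.29 and -0.23, in that order of genes.

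The rest of the machinery was described by role. The TRAP subunits Ssr2 and Ssr4 had log2 differences of -0.17 (limma adjusted p = 0.176) and -0.14 (limma adjusted p = 0.122). All 4 tested translocon genes had negative log2 differences, between -0.14 for Sec61b, a small channel subunit, and -0.01 for Tram1, a membrane protein next to the channel. Every one of the 10 HF_HF arrays lay below the HF_LF median for Sec61b and for the channel pore Sec61a1, yet neither passed (limma adjusted p = 0.22 and 0.414). The catalytic OST subunits Stt3a and Stt3b were at -0.11 (limma adjusted p = 0.168) and -0.13 (limma adjusted p = 0.226).

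Signal peptidase genes did not share a direction. Spcs1 and Spcs2, further noncatalytic subunits, were at -0.11 each (limma adjusted p = 0.41 and 0.202), while the catalytic subunits Sec11a and Sec11c were at 0.01 and 0.15.

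Of the SRP genes, Srp9, part of the domain that slows translation, differed by -0.18 (limma adjusted p = 0.236), and the other 4 lay between -0.05 and 0.01. The SRP receptor subunits Srpr and Srprb differed by 0.02 and -0.08. The shared OST subunits Rpn2, Ddost and Dad1 lay between -0.01 and 0.06. In all, 12 members had an unadjusted p under 0.05, 11 of them lower and 1 (Krtcap2) higher, beside 17.6% of all tested probes.

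Of the tested members, 8 had further tested probes, 10 in all. In HF_HF against HF_LF mice 9 of these 10 had the same sign as the probe used, in LF_HF against LF_LF mice 7, in HF_HF against LF_HF mice 8 and in HF_LF against LF_LF mice 9. None of the 10 was called in any comparison.

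**Figure D2:**
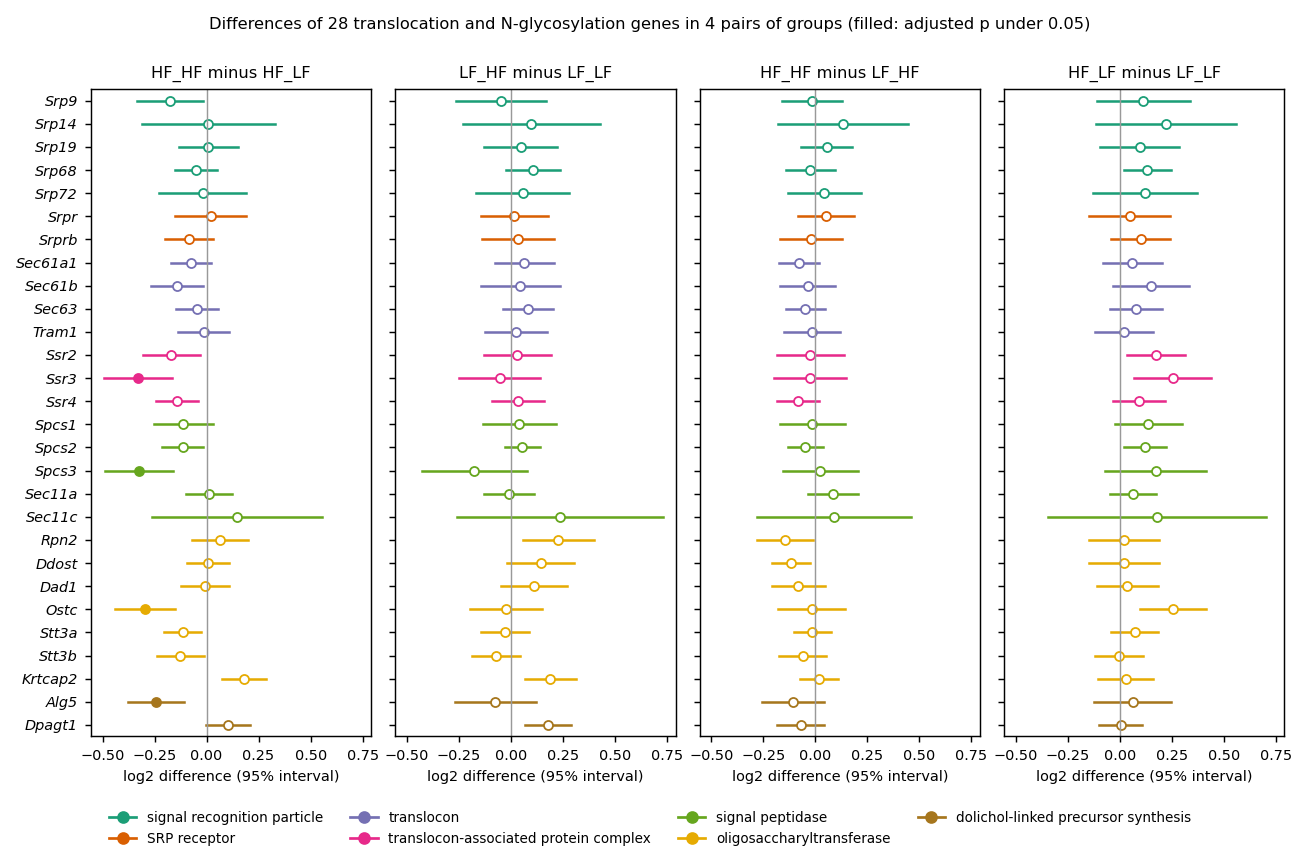
Log2 difference of each of the 28 tested genes (rows, coloured by role) in 4 pairs of groups (panels), with 95% intervals. Filled points have a limma adjusted p under 0.05. The 4 filled points are all in the HF_HF minus HF_LF panel, and 27 of 28 points lie right of 0 in the HF_LF minus LF_LF panel.

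In sons of LF dams, the same change of diet gave 0 called members (lowest limma adjusted p = 0.279, 3 at an unadjusted p under 0.05, all higher, 0 by the Cyber-T-style test), where 0.0564% of all tested genes were called. Of all tested probes, 8.95% had an unadjusted p under 0.05. Ssr3 measured 1147, 1417 and 1549 units (lowest, median, highest) in LF_HF mice, against 875, 1508 and 1747 units in LF_LF mice, a log2 difference of -0.05 with a 95% interval of -0.25 to 0.14. Its LF_LF range enclosed the whole LF_HF range only through array LF_LF 1, and the next lowest LF_LF array was at 1337 units. Ostc measured 590, 753 and 912 units in LF_HF mice, against 541, 787 and 852 units in LF_LF mice, a difference of -0.02 (95% interval -0.20 to 0.15). Alg5 measured 498, 657 and 729 units in LF_HF mice, against 424, 720 and 795 units in LF_LF mice, a difference of -0.08 (-0.27 to 0.12). Spcs3 differed by -0.18 (-0.43 to 0.08). The groups overlapped widely for each of the 4 genes. Array LF_LF 1 was the lowest of its group for each of them, which moved these differences upwards. The differences of single genes without this array are not given here. The 3 members with the lowest unadjusted p were Dpagt1 (0.18), Krtcap2 (0.19) and Rpn2 (0.23).

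Members were higher in LF_HF mice for 20 of 28 genes, with a median of 0.04. That count rested on array LF_LF 1: without it 14 were higher and 14 lower, with a median of -0.00.

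Averaged over the dam diets, the HF diet after weaning raised Krtcap2 and Dpagt1 and lowered Spcs3. These 3 of 28 members (10.7%) stand beside 5.73% of all tested genes called in either direction, 3.08% higher and 2.65% lower. Members were higher for 14 genes and lower for 14, with a median of -0.00. Of the 2 OST subunits known from the STT3A form, Krtcap2 was at 0.18 and Ostc at -0.16, where only Krtcap2 passed the test.

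Krtcap2, the small OST subunit also called KCP2, measured 3247, 3689 and 3976 units (lowest, median, highest) in HF_HF mice and 2792, 3269 and 3575 units in HF_LF mice. In sons of LF dams it measured 3333, 3661 and 3855 units in LF_HF mice and 2701, 3202 and 3915 units in LF_LF mice. On 19 of the 20 HF arrays it lay above the median of the LF arrays of the same dam diet, and the exception was HF_HF 5. Krtcap2 rose by 0.18 (log2, SE 0.04, 95% interval 0.11 to 0.26, limma adjusted p = 0.00215), or 1.14-fold. The difference was nearly equal within each dam diet, 0.18 in sons of HF dams and 0.19 in sons of LF dams, and the interaction was -0.01 (95% interval -0.16 to 0.14). Array LF_LF 1 was the lowest of the LF_LF mice, which enlarged the difference in sons of LF dams. Array HF_HF 5 was the lowest of the HF_HF mice, which reduced that in sons of HF dams.

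Dpagt1 encodes the enzyme that starts the dolichol-linked sugar chain, the target of tunicamycin. It measured 320, 373 and 403 units (lowest, median, highest) in HF_HF mice and 309, 350 and 392 units in HF_LF mice. In sons of LF dams its values were 359, 381 and 478 units in LF_HF mice and 316, 350 and 368 units in LF_LF mice. Array HF_HF 7 was the 1 HF array of 20 below the LF median of its dam diet. Dpagt1 rose by 0.14 (SE 0.04, limma adjusted p = 0.0117), or 1.10-fold.

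Spcs3 fell by 0.25 on average (SE 0.08, limma adjusted p = 0.0394), with 9 of 10 HF_HF arrays below the HF_LF median and 8 of 10 LF_HF arrays below the LF_LF median. In sons of LF dams it measured 480, 577 and 715 units in LF_HF mice and 335, 674 and 865 units in LF_LF mice, so that the lowest of all values was on array LF_LF 1 of the group that was higher on average. Without this array the log2 differences of Spcs3, Ssr3, Ostc and Alg5 all passed the test as lower, which made 6 called members with Krtcap2 and Dpagt1. With it, Ssr3 (-0.19, limma adjusted p = 0.0613), Ostc (-0.16, limma adjusted p = 0.0775) and Alg5 (-0.16, limma adjusted p = 0.0995) stayed short of the threshold. Spcs3 passed in 4 of 16 fits that each left out 1 of 4 arrays or 1 of 12 cages. Leaving out array LF_HF 1 or HF_HF 5 ended the call of Spcs3 and kept those of Krtcap2 and Dpagt1, and leaving out cage 4 or 23 kept that of Krtcap2 alone.

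Rpn2 and Sec11c had the other high values of the averaged contrast. Rpn2, an OST subunit of the ribophorin type, measured 1410, 1576 and 1902 units (lowest, median, highest) in HF_HF mice and 1304, 1556 and 1825 units in HF_LF mice. In sons of LF dams its values were 1512, 1733 and 2104 units in LF_HF mice and 1162, 1536 and 1882 units in LF_LF mice. The LF_HF median was the highest of the 4, and Rpn2 averaged 0.15 higher on the HF diet (limma adjusted p = 0.094). Sec11c, a catalytic subunit of signal peptidase, averaged 0.19 higher with an SE of 0.16 (limma adjusted p = 0.584). Its spread was the widest of all members: from 531 to 1128 units in HF_HF mice (median 812), from 401 to 1217 units in HF_LF mice (median 588), from 483 to 1211 units in LF_HF mice (median 650) and from 373 to 1263 units in LF_LF mice (median 499). The SRP gene Srp14 came next, with a SD of 0.39 (log2) within groups beside 0.55 for Sec11c.

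The called genes were also compared among cage mates, in the 5 birth cages that held both diets. The arrays of these cages were among those that gave the calls, so the signs below are a description and not separate support. Signs of genes that were not called are not given here. Ssr3, Spcs3 and Alg5 were lower in the HF sons in 5 of 5 cages, with differences of -0.69 to -0.06 for Ssr3, -0.57 to -0.19 for Spcs3 and -0.47 to -0.05 for Alg5. Ostc was lower in 4 of 5, and differed by 0.01 in cage 11. Krtcap2 was higher in 5 of 5 cages, by 0.01 to 0.30, and Dpagt1 in 4 of 5, with -0.06 in cage 20. Each of these cages held 1 to 3 sons per diet. With cage as a fixed block the averaged contrast called 0 members, the lowest limma adjusted p being 0.0532 for Spcs3 (-0.35), and with cage as a random block it called the same 3 genes.

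**Figure D3:**
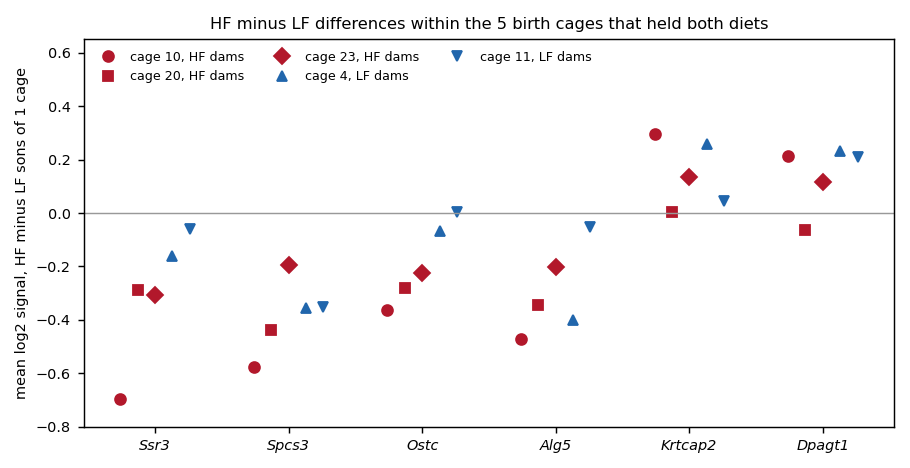
HF minus LF difference in mean log2 signal (y axis) among sons of the same birth cage for the 6 called genes (x axis), in each of the 5 birth cages with both diets. The genes were chosen by calls on data that include these arrays. Red symbols are cages of HF dams and blue symbols cages of LF dams. All 5 symbols are below 0 for Ssr3, Spcs3 and Alg5 and above 0 for Krtcap2.

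The promoters of Alg5 and Krtcap2 are shown as examples. Alg5 was called as lower in HF_HF against HF_LF mice only, and Krtcap2 as higher on the HF diet averaged over the dam diets only. The sequences are RefSeq's on GRCm38.p6, from 250 bases before to 50 after a transcript start. For Krtcap2 the more upstream of 2 listed promoters is shown, and both lie inside the outermost annotated bounds of the gene. Capitals mark CCACG or its complement CGTGG, the end of the ER stress response element through which transcription factors of the unfolded protein response are known to act. The Alg5 promoter is at chr3:54735289-54735588 and that of Krtcap2 at chr3:89246188-89246487, both on the plus strand.
Alg5: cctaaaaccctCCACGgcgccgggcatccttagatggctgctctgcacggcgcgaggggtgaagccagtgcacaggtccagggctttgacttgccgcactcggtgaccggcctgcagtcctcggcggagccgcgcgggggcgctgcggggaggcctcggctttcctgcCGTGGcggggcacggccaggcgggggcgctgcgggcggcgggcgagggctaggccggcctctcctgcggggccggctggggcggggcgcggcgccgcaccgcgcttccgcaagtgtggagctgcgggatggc
Krtcap2: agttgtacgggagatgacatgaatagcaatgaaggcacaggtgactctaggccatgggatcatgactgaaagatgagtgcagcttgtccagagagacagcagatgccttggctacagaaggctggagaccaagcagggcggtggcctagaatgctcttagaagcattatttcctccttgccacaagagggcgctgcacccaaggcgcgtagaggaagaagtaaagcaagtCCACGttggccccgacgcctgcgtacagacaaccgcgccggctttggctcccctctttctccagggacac

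RefSeq promoters were at hand for 25 of the 35 genes (27 promoters). The full element (CCAAT, 9 bases of any kind, then CCACG), searched on both strands, was in 0 of these 27 and in 0.119% of all 32851 promoters. CCACG alone was in 18 of 27 member promoters (66.7%) and in 32.8% of all promoters, and it is contained in the full element. Member promoters had a median GC content of 60% and all promoters one of 52.7%. Among the 7600 promoters with a GC content between the quartiles of the members, 56.3% and 65.7%, CCACG was in 47.7%. TGACGTG, the core of another element of this response, was in 1 of 27, that of Srpr, and in 2.01% of all promoters. A match of letters is a description and does not show binding. For Spcs3, Ostc and Dpagt1, no promoter is shown.

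The diet of the dam was compared next. Between HF_LF and LF_LF mice 0 members were called (lowest limma adjusted p = 0.327, 5 at an unadjusted p under 0.05, all higher, 0 by the Cyber-T-style test), and 0% of all tested genes were. An unadjusted p under 0.05 was found for 8.58% of all tested probes. Nearly every member had a positive difference, 27 of 28, with a median of 0.09, compared with 50% of all tested genes. Ostc was highest at 0.25 (SE 0.08, 95% interval 0.10 to 0.41), with a lowest, median and highest signal of 776, 895 and 1087 units in HF_LF mice and 541, 787 and 852 units in LF_LF mice. Ssr3 differed by 0.25 (SE 0.09, 95% interval 0.07 to 0.44). Both genes were lowest on array LF_LF 1 among LF_LF mice, which enlarged these differences. By role, 5 of 5 SRP genes, 4 of 4 translocon genes, 3 of 3 TRAP genes, 5 of 5 signal peptidase genes and 6 of 7 OST genes were higher in HF_LF mice, with medians of 0.12, 0.07, 0.18, 0.14 and 0.03 in that order. Without array LF_LF 1 the median of the members was 0.05, with 24 higher and 4 lower, and without cage 8 it was 0.06, with 19 higher and 9 lower. In this contrast 11 of 12 myeloid and 8 of 9 adipocyte markers were lower in HF_LF mice, with medians of -0.25 and -0.40, and their part was not tested. Array LF_LF 1, with a myeloid mean of 1.46 and an adipocyte mean of 2.01, moved the differences of both lists further below 0. Marker medians without this array are not given here.

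Between HF_HF and LF_HF mice 0 members were called as well (lowest limma adjusted p = 0.767, 2 at an unadjusted p under 0.05, 0 by the Cyber-T-style test), again beside 0% of genes. Unadjusted, 6.21% of all tested probes had a p under 0.05. Of 28 members 8 were higher and 20 lower, with a median of -0.02. This median was -0.05 without array LF_HF 1 and -0.01 without HF_HF 5. It was -0.06 without cage 14 and 0.01 without cage 9, where 17 members were higher and 11 lower. The lowest were the OST subunits Rpn2 at -0.14 (95% interval -0.28 to -0.01) and Ddost at -0.12 (-0.21 to -0.02). Ddost measured 175, 189 and 205 units (lowest, median, highest) in HF_HF mice and 176, 208 and 219 units in LF_HF mice. All 10 HF_HF arrays lay below the LF_HF median, and the ranges overlapped. On the LF diet it measured 159, 194 and 209 units in HF_LF mice and 135, 188 and 232 units in LF_LF mice, where the HF_LF range lay within the LF_LF range. All 28 intervals lay within 0.5 of 0 on the log2 scale. They come from a fit that took sons of 1 birth cage as independent. Each of the 2 groups had 4 birth cages, so the intervals may be too narrow.

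Averaged over the diets after weaning, 0 members differed by dam diet (lowest limma adjusted p = 0.461, for Ostc at 0.12, 1 at an unadjusted p under 0.05, 0 by the Cyber-T-style test), where 0.0903% of all tested genes were called. Among all tested probes, 9.66% had an unadjusted p under 0.05. Srp14, whose protein pairs with that of Srp9, had the highest value at 0.18 (SE 0.12). Its range was 149 to 287 units in HF_HF mice (median 252), 145 to 292 units in HF_LF mice (median 191), 152 to 274 units in LF_HF mice (median 185) and 134 to 293 units in LF_LF mice (median 160). The 4 ranges nearly coincided, while the medians differed. Sec11c was at 0.13, and Rpn2, Ddost and Dpagt1 were the lowest at -0.06, -0.05 and -0.03.

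An interaction term compared the response to the diet between sons of HF and LF dams, and 0 members passed (lowest limma adjusted p = 0.866, 4 at an unadjusted p under 0.05, 0 by the Cyber-T-style test), beside 0% of all tested genes. Of all tested probes, 5.52% had an unadjusted p under 0.05. The estimates of the members were nevertheless one-sided, with 26 of 28 below 0 and a median of -0.13, while 48.7% of all tested genes were above 0. Ssr3 was at -0.28 (95% interval -0.53 to -0.02), Ostc at -0.27 (-0.49 to -0.05), Ssr4 at -0.18 (-0.33 to -0.02) and Spcs2, another signal peptidase subunit, at -0.17 (-0.30 to -0.04). For Ssr3, Ostc and Ssr4, array LF_LF 1 was the lowest of the LF_LF mice, which moved these estimates further below 0. By role, 7 of 7 OST genes, 5 of 5 SRP genes, 4 of 4 translocon genes, 3 of 3 TRAP genes and 4 of 5 signal peptidase genes were below 0. Members vary together, so their shared sign is not 28 separate observations. Without LF_LF 1 the median was -0.08, with 24 of 28 below 0, and without cage 8 it was -0.07, with 25 below 0. With cage as a fixed block it was -0.07, with 20 below 0. All 12 myeloid markers had interaction estimates above 0 (median 0.37), as had 8 of 9 adipocyte markers (median 0.47), and their part was not tested. The adipocyte and myeloid means were 2.01 and 1.46 on array LF_LF 1 and 0.64 and 1.61 on HF_HF 5, which moved the estimates of these lists upwards. On LF_HF 1 the 2 means were 0.80 and 0.36, which moved them downwards. Marker estimates without these arrays are not given here. Each pair of groups shares its arrays with 2 of the other pairs and with this term, so these contrasts do not stand for separate evidence.

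Across the animals of a group, the members did not move as 1 block. After group means were removed, the median correlation over the 378 pairs of members was 0.21 on 40 arrays, compared with 0.00 for all pairs of tested genes, and 19.8% of member pairs exceeded 0.5, compared with 1.86% of all pairs. Much of this came from the arrays that stood apart. Without these 3 arrays the median over member pairs was 0.04 and 9.79% exceeded 0.5, compared with 1.37% of all pairs. These are descriptions over arrays that share a normalization, with no test.

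Of the genes that stayed closely tied without those arrays, 2 sets are described here. The first held the signal peptidase subunit Sec11c with the SRP genes Srp14, Srp19 and Srp72, with correlations of 0.75 to 0.90 on all arrays and 0.75 to 0.92 without the 3. The second held Ssr3, Spcs3 and Alg5, with 0.79 to 0.87 on all arrays and 0.64 to 0.77 without the 3. Other pairs reached values like those of the second set without the 3, among them Tram1 with Stt3b (0.75) and Srp72 with Srpr (0.69). Dpagt1 was closest to Rpn2 (0.71 on all arrays, 0.72 without the 3), and Krtcap2 closest to Srp68 on all arrays (0.54, and 0.35 without the 3) and to Rpn2 without the 3 (0.48). Srp14 ran opposite to Dad1, a shared subunit of OST, with -0.70 on all arrays and -0.85 without the 3.

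**Figure D4:**
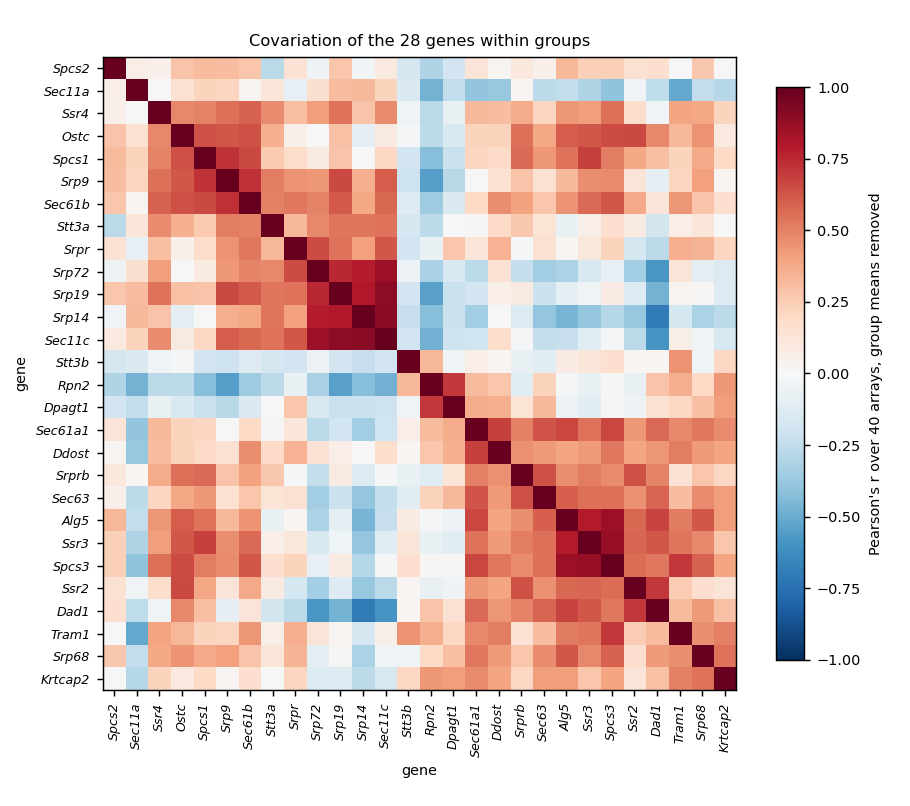
Pearson's r (colour) between each pair of the 28 genes over 40 arrays after group means were removed. Rows and columns are genes in the same clustered order. Sec11c, Srp14, Srp19 and Srp72 form a block with r of 0.75 to 0.90, apart from the block of Ssr3, Spcs3 and Alg5 with 0.79 to 0.87.

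The mean of the 28 members, each centred on its average over all arrays, ran from -0.08 to 0.05 in HF_HF mice, from -0.07 to 0.16 in HF_LF mice, from -0.17 to 0.11 in LF_HF mice and from -0.40 to 0.08 in LF_LF mice (log2). The lowest array in LF_HF mice was LF_HF 1 and the lowest in LF_LF mice was LF_LF 1, both among the 3 that stood apart. Within groups this mean had a correlation of -0.70 with the mean of the adipocyte markers and -0.63 with that of the myeloid markers on 40 arrays, and of -0.29 and -0.37 without the 3 arrays. With the T and NK cell markers it was -0.68 on all arrays and 0.15 without the 3. With the digestive enzymes it was 0.42, and 0.15 without the 3. The duct markers gave 0.18 on all arrays and -0.50 without the 3. Endothelial markers gave -0.56 and -0.39, and fibroblast and matrix markers -0.49 and -0.39, in that order. For the acinar transcription factors the values were 0.55 and 0.03, for islet markers 0.30 and -0.01, and for hepatocyte markers -0.17 and 0.19.

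**Figure D5:**
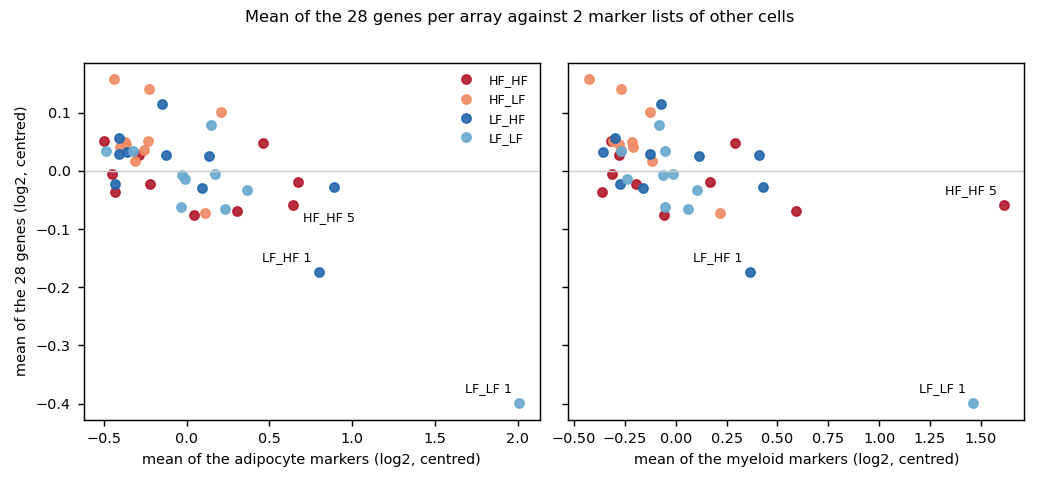
Mean of the 28 genes per array (y axis, log2, each gene centred on its average) against the mean of the adipocyte markers (left) and myeloid markers (right), 1 point per array, coloured by group. Array LF_LF 1 lies far from the rest, at -0.40 for the members and 2.01 for the adipocyte markers.

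Other genes of the pathway were taken from 3 lists. Of 18 tested genes of ER targeting and translocation outside the 28, Emc10, a subunit of the ER membrane protein complex, rose in HF_HF mice compared with HF_LF mice (0.24, limma adjusted p = 0.0491) and on average over the dam diets (0.20, limma adjusted p = 0.00491). Of 25 genes of dolichol and N-glycan assembly, 0 were called in HF_HF against HF_LF mice and 1 on average (where 2.46% and 5.73% of all tested genes were called), the mannosyltransferase gene Alg3 (0.14, limma adjusted p = 0.0115). The medians of these 2 lists in the averaged contrast were -0.01 and 0.01.

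Genes that act after the sugar chain is attached formed the third list. Of 15 tested genes of N-glycan trimming and glycoprotein folding, 3 rose and 1 fell in the averaged contrast, beside 5.73% of all tested genes called, and whether this list was called more often than others was not tested. In all, 12 of 15 were higher with a median of 0.08, while 49.2% of all tested genes were higher. Edem2, which helps commit misfolded glycoproteins to degradation, rose by 0.27 (limma adjusted p = 9.35e-04). Mogs, the glucosidase that removes the outermost glucose, rose by 0.20 (limma adjusted p = 0.0163), and Prkcsh, the noncatalytic subunit of the next glucosidase, rose by 0.19 (limma adjusted p = 0.0138). Pdia3, a disulfide isomerase that works with calnexin and calreticulin, fell by 0.12 (limma adjusted p = 0.0184), and it fell by 0.18 in HF_HF against HF_LF mice (limma adjusted p = 0.04). No other gene of the 3 lists was called in the 7 comparisons. Of the 4 tested acinar transcription factor genes, Ptf1a (0.45, limma adjusted p = 0.00685) and Bhlha15 (0.29, limma adjusted p = 0.015) rose in the averaged contrast, where 0 of 21 digestive enzyme genes were called. Krt18, of the duct list, fell in HF_HF against HF_LF mice (-0.20, limma adjusted p = 0.0437).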

How the data were processed

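Pancreas RNA of 40 mice was measured on 1 array each. The deposited values are linear signal intensity, which the authors exported with BeadStudio (version not given in the sources used here) without background subtraction and quantile normalized across all 40 arrays. They were transformed to log2 and not scaled further, since sorted values of any 2 arrays lay within 1.86% of each other. Of 25697 probes, 23978 had 1 gene symbol and 1719 none, and 12246 passed the filter. A gene was read from its brightest tested probe.

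Diet groups from the labels were compared in limma 3.58.1 (R 4.3.3), as a two-sided moderated test with a trend of variance on intensity, with Benjamini-Hochberg adjustment over the tested probes and calls at an adjusted p under 0.05. The 4 pairs of groups used 20 arrays each, and the averaged effects and interaction all 40. Correlations used residuals after group means. On simulated data (12246 probes, 100 moved per fold), 81% of probes moved 1.2-fold and 97% of those moved 1.5-fold were recovered in HF_HF against HF_LF mice. Recovery was not tested for the members alone, or with arrays of a birth cage varying together. In this contrast the median SE of the members was 0.060 (log2), beside 0.048 for all tested genes. The number of arrays limits precision.

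Members, lists and tests were chosen with earlier results of these data known. Members called in any comparison, or among the 3 highest or 3 lowest of an averaged contrast, were given in full, and other pathway genes where called. Promoters came from RefSeq, and that of 1 called member is not reported here. An earlier rule was to show only promoters with the full ER stress response element, of which there were 0. The 2 shown, the correlations without 3 arrays and the promoters of like GC content were chosen after the data were seen. Alternatives were 1 fit over 40 arrays, no trend, a regularized test after Cyber-T (its settings assumed), median centring, cyclic loess, background subtraction, no or a stricter filter, array weights, leaving out arrays or cages, and the cage as a block or as 1 mean.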

Additional observations from a re-analysis of the deposited data

Results flagged for a closer look

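Array LF_LF 1 lay far below the other 9 of its group for the 4 genes that fell in HF_HF mice. Its log2 signal was 9.77 for Ssr3 (next lowest array 10.38), 8.39 for Spcs3 (next 9.32), 9.08 for Ostc (next 9.50) and 8.73 for Alg5 (next 9.24). The mean of the 28 members was -0.40 on this array, with the next at -0.07. In LF_HF mice, array LF_HF 1 was low, with a mean of the members of -0.17 and the next at -0.03. The marker levels of these arrays are given above, and their part in these low values was not tested.

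In HF_HF mice, Krtcap2 was low on array HF_HF 5, at 11.66 with the next at 11.80, and Dpagt1 was low on array HF_HF 7, at 8.32 with the next at 8.48. Array HF_HF 7 was also the highest of its group for Ssr3, Spcs3, Ostc and Alg5.

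In each case the gap to the nearest array, divided by the range of the group, exceeded the 95% critical value of Dixon's test for 10 samples. Of 44 groups examined 8 did so, and chance gives about 1 in 20. The genes share arrays and vary together, so these are not separate cases.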

How the results depend on the processing

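In HF_HF against HF_LF mice 4 members were called. The count was 2 with all 40 arrays in 1 fit, and 0 with the Cyber-T-style test, with no filter, with cage as a fixed block and with 1 mean per cage. It was 5, with Krtcap2 called as higher beside the same 4 genes, with no intensity trend, cyclic loess, a stricter filter and array weights. Leaving out 1 array or cage gave 0 to 3. All probes called were 274, and 229, 50, 76, 51 and 2 under the 5 alternatives that gave 2 or 0, in that order. With the Cyber-T-style test the lowest adjusted p of a member was 0.132. For Ssr3, Spcs3, Ostc and Alg5, 0 of the alternatives reversed the sign, and the log2 difference of Ssr3 stayed between -0.39 and -0.28.

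Averaged over dam diets 3 members were called. The count was 6 with array weights and without the 3 arrays standing apart, and 0 with the Cyber-T-style test, with cage as a fixed block and with 1 mean per cage. Leaving out 1 array or cage gave 1 to 6, with 6 without array LF_LF 1 or cage 8. Krtcap2 stayed called in 16 of 16 such fits and Dpagt1 in 14 of 16. Total calls moved from 639 probes to 1261 with weights, 923 without the 3 arrays, 156 with the Cyber-T-style test, 191 with the fixed block and 178 with cage means.

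In the other 5 comparisons 0 members were called under every alternative. No scaling moved the median of all genes by as much as 0.01. The cause of these changes was not tested. No paired analysis was possible because replicates were numbered in accession order, and the cage was the block instead. Folds are limited by the unsubtracted background, most for members near the array median such as Spcs2, at 60.9 to 86.8 units.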
